A study of Homo sapiens with 14 samples.

Results

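Proneural and early neurogenic factors are the transcription factors that move a neural progenitor out of the cell cycle and into neuronal differentiation. The 9 genes described here were taken by symbol: NEUROG1, NEUROG2, NEUROD4, NHLH1, INSM1, EBF2, EBF3, MYT1 and MYT1L. All 9 were found among the 58051 genes of the deposited table, and all 9 passed the filter on low values, which kept genes that reached a normalized count of 10 in 3 or more libraries, as did 17102 genes in all. No measured value was used to choose them by this rule, although they were proposed with earlier results of these data known.

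The libraries came from H9 cells, an established human embryonic stem cell line, turned into progenitors labelled as resembling those of the medial ganglionic eminence (MGE), the ventral forebrain region that gives rise to cortical interneurons. Every culture received SB431542 (2 µM) and LDN193189 (200 nM), blockers of TGF-β and BMP signalling, from day 0 to day 6, then SHH (250 ng/mL) with purmorphamine (0.3 µM), an activator of the same pathway, from day 10 to day 17, and was collected on day 25. The 14 libraries formed 4 groups: wild type (WT, n = 3), Ctnnb1 knockout (KO, n = 5), and a line carrying an inducible Ctnnb1 overexpression construct, kept without doxycycline (OE without Dox, n = 3) or treated with Dox (OE with Dox, n = 3; 0.1 µg/mL in the medium between days 17 and 25). CTNNB1 encodes β-catenin, which links cadherins to the cytoskeleton and carries the canonical WNT signal to TCF/LEF factors in the nucleus. The promoter of the construct, the form of β-catenin it encodes and whether each engineered line is a single clone are not given in the sources used here. WT cells given Dox were not analysed here, so the effects of the drug and of the construct cannot be told apart. Nothing in the labels says whether replicates were separate cultures, so p-values measure the spread between these libraries, which may be technical.

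NEUROG1 and NEUROG2 are proneural basic helix-loop-helix (bHLH) proteins. They pair with E proteins, bind the E-box CANNTG, and switch on NOTCH ligands and a cascade of later factors, among them NEUROD4, NHLH1 and the EBF genes. HES and ID proteins hold that cascade back, and MYT1, MYT1L and INSM1 are zinc-finger proteins that help a committing cell leave the progenitor programme. In the embryonic telencephalon NEUROG2 is best known from dorsal progenitors.

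Because the 4 bHLH factors among the 9 genes belong to a family that binds E-boxes, the 250 bases before their annotated starts are printed here, from RefSeq on build GRCh38.p14, each 5′ to 3′ on the strand of its gene. Capitals mark E-boxes (CANNTG), which read the same on both strands. RefSeq windows were searched for 7 of the 9 genes, and EBF2 and INSM1 were not searched.
NEUROG1, chr5:135535965-135536214, minus strand: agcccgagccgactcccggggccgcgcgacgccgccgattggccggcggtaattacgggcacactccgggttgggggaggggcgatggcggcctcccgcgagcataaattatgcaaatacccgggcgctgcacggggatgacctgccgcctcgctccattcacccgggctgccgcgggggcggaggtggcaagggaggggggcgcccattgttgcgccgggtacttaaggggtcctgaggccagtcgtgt
NEUROG2, chr4:112516181-112516430, minus strand: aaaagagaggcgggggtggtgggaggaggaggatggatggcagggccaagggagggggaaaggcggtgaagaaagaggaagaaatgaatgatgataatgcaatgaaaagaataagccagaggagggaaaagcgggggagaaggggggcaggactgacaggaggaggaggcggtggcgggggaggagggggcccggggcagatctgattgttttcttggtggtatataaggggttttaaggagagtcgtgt
NEUROD4, chr12:55019724-55019973, plus strand: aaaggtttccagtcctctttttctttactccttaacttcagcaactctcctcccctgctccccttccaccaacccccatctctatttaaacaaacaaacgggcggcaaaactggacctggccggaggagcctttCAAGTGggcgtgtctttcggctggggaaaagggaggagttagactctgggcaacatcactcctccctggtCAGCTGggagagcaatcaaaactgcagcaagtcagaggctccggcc
NHLH1, chr1:160366821-160367070, plus strand: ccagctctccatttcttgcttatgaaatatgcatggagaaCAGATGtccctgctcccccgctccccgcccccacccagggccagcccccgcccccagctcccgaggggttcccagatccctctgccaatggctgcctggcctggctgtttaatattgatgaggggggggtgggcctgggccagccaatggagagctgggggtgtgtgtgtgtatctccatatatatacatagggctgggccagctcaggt
The NEUROG1 and NEUROG2 windows held 0 matches to CANNTG, NEUROD4 held 2 and NHLH1 held 1. The NEUROD4 matches were CAAGTG and CAGCTG, and the NHLH1 match was CAGATG, the word often bound by NEUROG and NEUROD proteins. CAGCTG and CAGATG are both cases of CANNTG. Over 35093 RefSeq windows of the same length, 61.8% held CANNTG, 12.2% held CAGATG and 13.98% held CAGCTG. None of the 4 windows held CTTTGAT, a word bound by TCF/LEF factors, or its variants CTTTGAA and then CTTTGTT, on either strand, while 9.97% of all windows held at least 1 of them. Among the searched windows that are not printed, those of EBF3 and MYT1 held 0 matches to CANNTG. The windows of the 4 annotated starts of MYT1L, which is not a bHLH gene, held 3, 0, 1 and 3. All these matches describe letters in a window and are not measured binding sites.

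The libraries held 5233270 to 5639725 reads in genes, and 3 reads, the limit that a count of 0 allows, correspond to normalized counts of 2.60 to 2.84. Such floors cover counting error only. Between libraries of the same group, the squared difference averaged 3.94 to 15.0 times what counting error alone gives, over 19 pairs. This is a mean over genes above a minimum count, so it does not describe a factor with few reads. CTNNB1 averaged 3814 ± 573 (SD, n = 3) normalized counts in WT, 2383 ± 271 (n = 5) in KO, 3345 ± 276 (n = 3) in OE without Dox and 27060 ± 3820 (n = 3) in OE with Dox, so transcript persisted in KO at a lower level and was highest with Dox. Of the MGE markers, NKX2-1 was read at 274 to 3475 in every library, but LHX8 was at only 17.0 to 37.9 in WT, against 559 to 1107 in KO and 379 to 985 in OE without Dox, and LHX6 was at 0.922 to 9.23 in OE with Dox. In OE with Dox LHX8 was at 69.7 to 109, above its WT range. Of the 6 listed MGE markers, 2 were called higher and 3 lower in OE with Dox than in WT, beside 10.4% and 10.1% of all tested genes. The MGE label thus went against LHX8 in WT and against LHX6 in OE with Dox, while NKX2-1 was read in every library.

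In the libraries labelled KO, 5 of the 9 factors were lower than in WT and 2 were higher. NEUROG1, NEUROG2, NEUROD4, EBF2 and EBF3 fell in KO against WT, by 5.87-fold (NEUROG1) to 14.1-fold (NEUROG2; 9.02-fold without WT replicate 1) in group means, whereas MYT1 and MYT1L, zinc-finger factors of a later step, rose. The 5 genes that fell and the 2 that rose are also those whose KO and WT libraries did not overlap. With Dox, MYT1, MYT1L and INSM1 fell, and none of the 9 passed the threshold upward.

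These calls use limma on log2(normalized count + 1) in 1 model of all 14 libraries, with Benjamini-Hochberg adjustment over the 17102 genes and a threshold of 0.05. All limma log2 folds are on that scale, which understates the change of genes with few reads. Log2 folds of edgeR and DESeq2 come from models of recovered reads and are on another scale. Among all tested genes 7.15% were called lower and 6.64% higher in KO against WT, against 5 and 2 of the 9 factors. Groups that did not overlap were found in 9.53% of genes in the lower direction and 8.61% in the higher. The median log2 fold of the 9 was -2.48, and that of all tested genes -0.02. With Dox, 12.9% of all genes were called lower and 12.8% higher, against 3 and 0 of the 9. Of the 9, 1 had an unadjusted p under 0.05 in the higher direction (NEUROG2), and edgeR and DESeq2 each called 1 higher. With the replicate number as a block, 4 were called lower (NHLH1 added) and 1 higher (NEUROG2). The Dox groups did not overlap in 19.5% of genes in the lower direction and 21.2% in the higher, against 3 and 2 of the 9, so the share of factors separated upward by Dox was near that of all genes. The median of the 9 under Dox was -0.16, beside 0.02 for all genes.

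**Figure D1:**
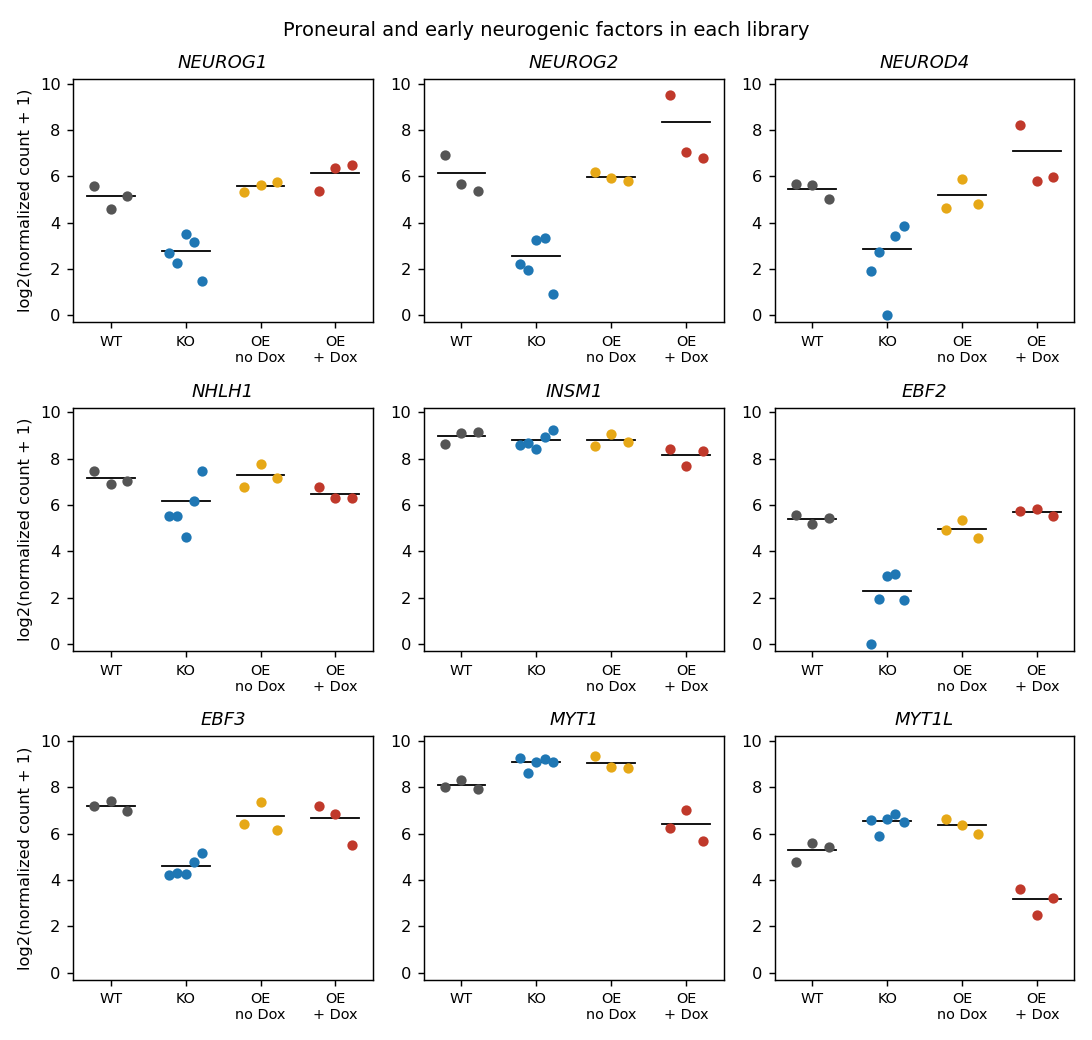
Normalized count of each of the 9 factors in each of the 14 libraries, on a log2(count + 1) axis, with points in replicate order and a line at the group mean. The KO points of NEUROG1, NEUROG2, NEUROD4, EBF2 and EBF3 all lie below the WT points, and the OE with Dox points of MYT1 and MYT1L all lie below those of every other group.

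NEUROG1, at 5:135534282-135535964 on the minus strand of hg38, was read at normalized counts of 46.4, 23.2 and 34.6 in WT and at 5.54, 3.78, 10.4, 8.09 and 1.79 in KO. Every KO library lay below every WT library, and the 5 KO libraries held only 32 reads of the gene between them. It fell by 2.48 on the log2 scale (SE 0.39; limma adjusted p = 0.00024). OE without Dox stood at 39.3, 48.1 and 53.5 and OE with Dox at 40.6, 81.8 and 89.4, with 1 induced library inside the uninduced range. The Dox difference of 0.51 (SE 0.44; limma adjusted p = 0.44) did not pass. In bulk RNA, fewer cells that express a gene and less RNA per cell cannot be told apart, here and for every gene that follows.

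NEUROG2, at 4:112513516-112516180 on the minus strand, had normalized counts of 121, 50.1 and 39.8 in WT and of 3.70, 2.83, 8.50, 8.98 and 0.895 in KO, where 27 reads were counted over the 5 libraries. The WT mean was 14.1 times the KO mean, and the log2 fold was -3.65 (SE 0.64; limma adjusted p = 0.0013). Without WT replicate 1, the highest WT library, the ratio was 9.02 and the log2 fold -3.18 (adjusted p = 0.010), smaller than that of EBF2 without the same library, at -3.35. OE without Dox gave 72.2, 60.1 and 55.3, and OE with Dox gave 729, 132 and 111. All induced libraries were therefore above all uninduced ones, but replicate 1 was 5.53 times the higher of the other two. The Dox log2 fold of 1.81 (SE 0.71) had a limma adjusted p of 0.080. It was 2.30 with adjusted p = 0.046 without OE with Dox replicate 3, and 0.95 with adjusted p = 0.29 without replicate 1. On the recovered reads, edgeR gave 2.36 with adjusted p = 0.023 and DESeq2 2.36 with adjusted p = 0.015, and with the replicate number as a block limma gave 1.81 with adjusted p = 0.030. The call for NEUROG2 under Dox thus depends on the test. NEUROG2 shares 92 exon bases (4.01% of its exons) with the antisense gene NEUROG2-AS1, and since the strand setting of the counting is not given, reads there cannot be told apart.

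NEUROD4, at 12:55019974-55030017 on the plus strand, encodes a bHLH factor switched on after the NEUROG genes. WT libraries were at 49.2, 48.3 and 31.2, and KO libraries at 2.77, 5.67, 0, 9.88 and 13.4, where the library at 0 allows up to 2.83. The KO values were below all WT values, and the log2 fold was -3.04 (SE 0.77; limma adjusted p = 0.017). This call was lost without WT replicate 1 (adjusted p = 0.068) or WT replicate 2 (adjusted p = 0.058), and when no filter on low values was applied (adjusted p = 0.074). OE without Dox stood at 23.8, 57.4 and 27.2 and OE with Dox at 293, 54.8 and 61.8, so replicate 1 again stood apart. The Dox log2 fold was 1.55 (SE 0.86; limma adjusted p = 0.22), and 0.78 with adjusted p = 0.56 without that replicate.

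NHLH1, at 1:160367071-160372846 on the plus strand, is a bHLH factor expressed briefly in newborn neurons. Its WT values were 177, 119 and 132. In KO it was at 45.3, 44.4, 23.6 and 70.1 in replicates 1 to 4, but at 174 in replicate 5, within the WT range. With all libraries the log2 fold of -1.29 (SE 0.46; limma adjusted p = 0.082) did not pass, and without KO replicate 5 it was -1.69 with adjusted p = 0.0011. OE without Dox gave 108, 217 and 144, and OE with Dox gave 110, 78.1 and 78.3, groups that overlapped at a log2 fold of -0.77 (limma adjusted p = 0.31, or 0.049 with the replicate block). Replicate 5 was thus the only KO library that reached the WT values of NHLH1.

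INSM1, at 20:20368104-20370949 on the plus strand, encodes a zinc-finger repressor of basal progenitors and newborn neurons. It was read at 395, 554 and 560 in WT and at 383, 401, 341, 485 and 605 in KO, ranges that overlapped. The KO log2 fold was -0.19 (SE 0.20; limma adjusted p = 0.63). OE without Dox stood at 373, 534 and 414 and OE with Dox at 335, 202 and 322, where every induced library was below every uninduced one. The Dox fall was 0.64 on the log2 scale (SE 0.23; limma adjusted p = 0.046). That call was fragile: it was lost on leaving out any of WT replicates 2 and 3, KO replicates 1, 2 and 4, OE without Dox replicates 2 and 3 or OE with Dox replicate 2, and edgeR gave an adjusted p of 0.0503. The adjusted p ran from 0.030 to 0.23 over the 14 libraries left out in turn, and the log2 fold was -0.41 without OE with Dox replicate 2.

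EBF2 and EBF3 belong to the early B-cell factor family, helix-loop-helix proteins that act below the NEUROG genes in neuronal differentiation and migration. EBF2, at 8:25841725-26045413 on the minus strand, had normalized counts of 46.4, 34.9 and 42.4 in WT and of 0, 2.83, 6.61, 7.19 and 2.68 in KO. Its fall of 3.43 on the log2 scale (SE 0.49; limma adjusted p = 0.00011) rested on 137 reads in the 3 WT libraries against 21 in the 5 KO libraries. The KO library at 0 allows a value of up to 2.77. OE without Dox gave 29.3, 39.8 and 22.7 and OE with Dox gave 51.7, 55.8 and 45.2. The induced EBF2 values were all above the uninduced ones, yet the log2 fold of 0.75 (SE 0.55; limma adjusted p = 0.36) did not pass.

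EBF3, at 10:129835233-129973053 on the minus strand, had the most reads of the 5 falling genes within WT and within KO, with normalized counts of 147, 170 and 123 in WT against 17.6, 18.9, 17.9, 26.1 and 34.9 in KO. The log2 fold was -2.65 (SE 0.35; limma adjusted p = 4.7e-05). OE without Dox was at 85.0, 166 and 70.7 and OE with Dox at 143, 112 and 44.2, a wide spread in both groups with overlapping ranges. The Dox difference of -0.16 (SE 0.39; limma adjusted p = 0.81) took the other sign when some libraries were left out, from -0.49 to 0.34. EBF3 shares 290 exon bases (3.82%) with an unnamed antisense lncRNA. EBF2 and EBF3 are related in sequence, and how reads matching both were counted is not given in the sources used here.

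MYT1, at 20:64102394-64242253 on the plus strand, and MYT1L, at 2:1789113-2331664 on the minus strand, encode zinc-finger factors of committed neuronal precursors and neurons. MYT1 was at 257, 318 and 243 in WT and at 615, 390, 541, 588 and 543 in KO. All KO libraries were above all WT libraries, with a log2 fold of 0.97 (SE 0.23; limma adjusted p = 0.0078). OE without Dox gave 653, 468 and 457, of which 2 were within the KO range and 1 above it, and OE with Dox gave 73.9, 127 and 50.7. MYT1 therefore fell under Dox by 2.71 on the log2 scale (SE 0.26; limma adjusted p = 4.7e-07), and the induced libraries were also below WT.

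MYT1L followed the same order of groups, with 26.5, 47.4 and 41.6 in WT, 96.1, 58.5, 97.3, 113 and 90.4 in KO and 97.8, 81.4 and 62.6 in OE without Dox. In OE with Dox it was at 11.1, 4.65 and 8.30, only 26 reads over the 3 libraries. MYT1L rose by a log2 fold of 1.23 in KO (SE 0.28; limma adjusted p = 0.0047) and fell by 3.22 under Dox (SE 0.31; limma adjusted p = 3.5e-07), where the uninduced mean was 10.1 times the induced mean. An antisense gene, MYT1L-AS1, shares 1335 bases (3.79%) of its exons.

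**Figure D2:**
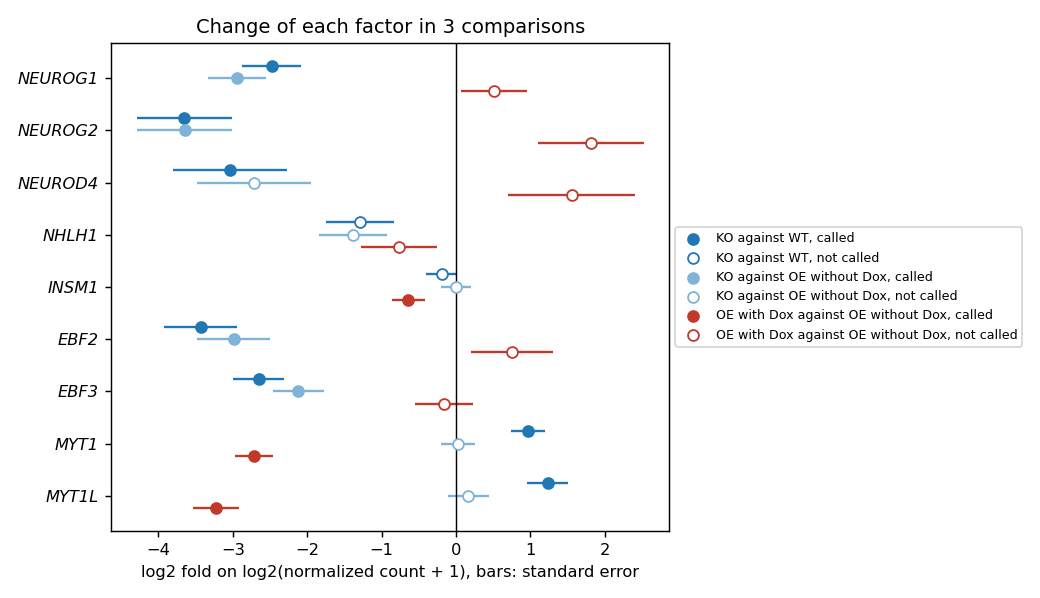
Log2 fold of each of the 9 factors with its standard error in 3 comparisons, KO against each control group and the induced against the uninduced line, with filled points for calls at a limma adjusted p under 0.05. NEUROG1, NEUROG2, EBF2 and EBF3 are called lower in both KO comparisons, and MYT1 and MYT1L are called lower under Dox.

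The rise of MYT1 and MYT1L in KO was seen only beside WT. Set against OE without Dox, KO gave log2 folds of 0.03 (SE 0.23; limma adjusted p = 1.0) for MYT1 and 0.17 (SE 0.28; adjusted p = 0.97) for MYT1L. NEUROG1 (-2.95, SE 0.39, limma adjusted p = 0.00022), NEUROG2 (-3.65, SE 0.64, adjusted p = 0.0063), EBF2 (-2.99, SE 0.49, adjusted p = 0.0021) and EBF3 (-2.12, SE 0.35, adjusted p = 0.0021) fell against this control too. NEUROD4 had no overlap between the groups but a limma adjusted p of 0.12, and NHLH1, at -1.39, had 0.23, or 0.0032 at -1.79 without KO replicate 5. So 4 of the 9 were called lower, beside 1.75% of all genes, and 5 did not overlap in that direction, beside 4.39% of all genes. None was called higher, beside 0.351% of all genes; 0 had an unadjusted p under 0.05 in that direction, and edgeR and DESeq2 each called 0. The median log2 fold of the 9 was -2.12, beside 0.00 for all genes. The KO libraries are shared by both comparisons, so these are not independent of those against WT.

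Between the control groups, MYT1 was higher in OE without Dox than in WT, with a log2 fold of 0.94 (SE 0.26; limma adjusted p = 0.040), a call lost on leaving out any of the 6 libraries compared, or KO replicate 4 or 5, with adjusted p up to 0.19, and with the replicate block (adjusted p = 0.065), under which 0 of the 9 were called. MYT1L, at 1.06 (SE 0.31), stood at a limma adjusted p of 0.0504. The other 7 factors gave log2 folds of -0.54 to 0.47, none called. That is 1 of 9 called higher, beside 3.43% of all genes, and 0 lower, beside 2.32%. In the lower direction 0 of the 9 had an unadjusted p under 0.05, and edgeR and DESeq2 called 0. OE with Dox against WT, which shares libraries with the comparisons above, gave MYT1 at -1.78 (limma adjusted p = 5.9e-05), MYT1L at -2.16 (adjusted p = 4.1e-05) and INSM1 at -0.83 (adjusted p = 0.013). These were 3 of 9 called lower, beside 10.1% of all genes, and 0 higher, beside 10.4%, with 2 at an unadjusted p under 0.05 in that direction and 2, NEUROG1 and NEUROG2, called by edgeR and by DESeq2. The INSM1 call was lost without WT replicate 2 (adjusted p = 0.057), WT replicate 3 (0.056) or OE with Dox replicate 2 (0.088).

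The change with Dox differed from the change with KO for 7 of the 9 factors. The difference of the log2 folds, Dox minus KO, was 5.46 (SE 0.96; limma adjusted p = 0.00056) for NEUROG2, 4.59 (SE 1.15; adjusted p = 0.0084) for NEUROD4 and 4.18 (SE 0.74; adjusted p = 0.00032) for EBF2. NEUROG1 gave 2.99 (SE 0.59; limma adjusted p = 0.00077) and EBF3 2.50 (SE 0.52; adjusted p = 0.0015). For each of these 5 genes the log2 fold in KO was larger in size than that under Dox. In the other direction were MYT1L at -4.45 (SE 0.41; limma adjusted p = 2.1e-07) and MYT1 at -3.68 (SE 0.35; adjusted p = 3.7e-07), which rose in KO and fell under Dox. NHLH1 (0.52, SE 0.69, limma adjusted p = 0.62) and INSM1 (-0.44, SE 0.30, adjusted p = 0.30) did not pass. Among all genes 15.1% were called with a higher and 13.6% with a lower difference, against 5 and 2 of the 9.

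OE with Dox replicate 1 stood apart from replicates 2 and 3 for NEUROG2 and NEUROD4, at 5.53 and 4.74 times the higher of the other two, and downward for NEUROG1, at 40.6 against 81.8 and 89.4. The other 6, NHLH1, INSM1, EBF2, EBF3, MYT1 and MYT1L, were between 0.580 and 1.40 times the higher of the others. CTNNB1 in that library, at 26028, was inside the range of the other induced libraries. EOMES and TBR1, factors that follow NEUROG2 in the dorsal telencephalon, were at 499 and 280 there against 21.4 to 23.0 and 64.1 to 108 in the other induced libraries. Of the 17102 genes, 18 (0.105%) were at least 4-fold above both other libraries in replicate 1, 8 in replicate 2 and 2 in replicate 3, on the scale of normalized count + 1. Of the MGE markers, NKX2-1 was at 910 in replicate 1 and at 274 and 296 in the others, and LHX6 was at 9.23 against 0.922 and 2.79, whereas LHX8, DLX1 and DLX2 were at 0.672 to 0.891 times the higher of the others. PAX6, at 286 against 466.4 and 548, and RELN, at 206 against 494 and 524, were lower in replicate 1. PAX3 was lower there too, at 17.5 against 308 and 592. The part of this library's composition in the NEUROG2 and NEUROD4 values was not tested.

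**Figure D3:**
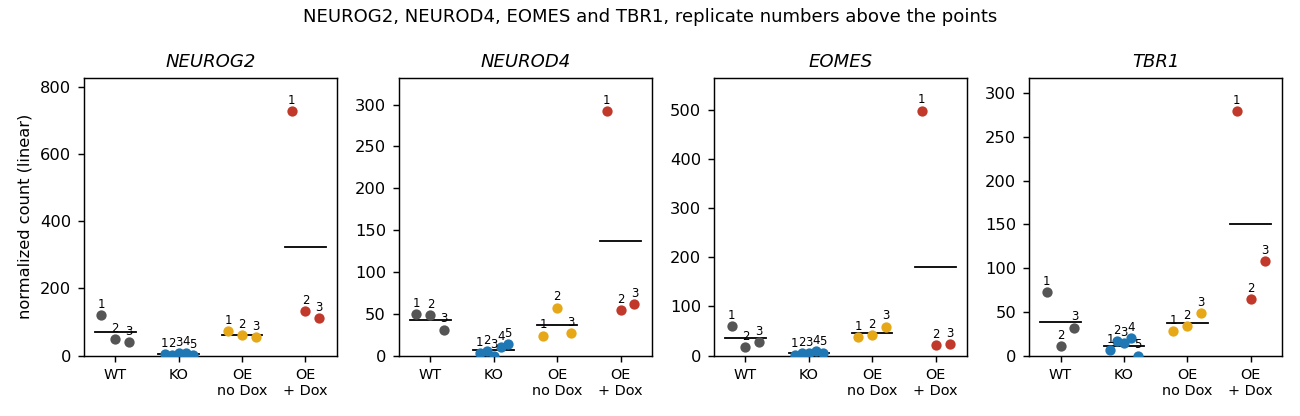
Normalized counts, on linear axes from 0, of NEUROG2, NEUROD4, EOMES and TBR1 in each of the 14 libraries by group, with replicate numbers above the points and a line at the group mean. Replicate 1 of OE with Dox is the highest library for each of the 4 genes, at 729, 293, 499 and 280.

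To set the factors in order of level, normalized counts were divided by the length of the annotated canonical transcript in kilobases. INSM1 was the highest per kilobase in WT at 177, in KO at 156 and in OE without Dox at 155, and its libraries did not overlap those of the next gene. The next was NHLH1 in WT (55.7 per kilobase), and MYT1 in KO (96.4) and in OE without Dox (94.7). In OE with Dox NEUROG2 came first at 141 per kilobase, but its range of 48.2 to 318 covered that of INSM1, at 101. At the bottom was MYT1L in WT (5.39) and OE with Dox (1.12), apart from its neighbour in both. In OE without Dox the lowest mean was that of EBF2 (5.92), which overlapped NEUROD4 (9.20). In KO the ranges of EBF3, NEUROG1, NEUROG2, NEUROD4 and EBF2, at means of 4.52 to 0.748 per kilobase, each overlapped the next, so no order is given among them. In WT the neighbours from NHLH1 down to NEUROG1, through MYT1, NEUROG2 and EBF3, overlapped likewise.

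Among 12 listed relatives of these factors, 9 passed the filter on low values. NEUROD6 had 0 reads in all 14 libraries, and NEUROD2 and ATOH1 also did not pass it. In KO against WT 1 relative rose and 1 fell, and under Dox 7 fell and 0 rose, with median log2 folds of -0.09 and -1.87. In that higher direction 0 had an unadjusted p under 0.05, and edgeR and DESeq2 called 0. EBF1 fell with its paralogs in KO, from 52.1 ± 36.1 to 4.83 ± 3.27 (log2 fold -3.17, limma adjusted p = 0.00036), and had -1.10 under Dox (adjusted p = 0.19). ST18, the third gene of the MYT family, fell under Dox by 2.80 (limma adjusted p = 0.00033) and had 0.58 in KO (adjusted p = 0.42). INSM2 rose in KO by 1.65 (limma adjusted p = 0.00086) and fell under Dox by 1.25 (adjusted p = 0.0097), whereas INSM1 did not pass in KO. INSM2 was also higher in OE without Dox than in WT (2.13, limma adjusted p = 0.00090), and KO against OE without Dox gave -0.48 (adjusted p = 0.79).

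The E proteins with which bHLH factors pair were abundant in every library. TCF12 fell in KO by 0.61 (limma adjusted p = 0.025), 1 of the 3, and none was called higher. The TCF12 call was lost without WT replicate 2 (-0.35, adjusted p = 0.20), WT replicate 3 (0.059), KO replicate 1 (0.056) or KO replicate 4 (0.051). Against OE without Dox, KO was at -0.24 for TCF12 (limma adjusted p = 0.86), so its fall in KO was seen only beside WT. In the higher direction of KO against WT, TCF4 had an unadjusted p under 0.05 (limma), and edgeR and DESeq2 called 0. Under Dox TCF12 rose by 0.87 (adjusted p = 0.0026), TCF4 by 0.70 (adjusted p = 0.0027) and TCF3 by 0.42 (adjusted p = 0.043), the last with overlapping groups and lost without any of 7 libraries (WT replicate 3, KO replicates 4 and 5, OE without Dox replicates 1 and 2, OE with Dox replicates 2 and 3; adjusted p up to 0.19). The median of the 3 was -0.16 in KO and 0.70 under Dox.

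Of 11 inhibitors of proneural factors, 1 rose and 3 fell in KO, and 4 rose and 4 fell under Dox, with median log2 folds of -0.10 and 0.50. ID1 and ID2, which sequester E proteins, fell in KO: ID1 from 232 ± 83.0 to 11.6 ± 5.43 (log2 fold -4.26, SE 0.41, limma adjusted p = 3.2e-06) and ID2 from 479 ± 163 to 74.6 ± 21.1 (-2.65, SE 0.24, adjusted p = 7.4e-07). Both also stood lower in OE without Dox than in WT. ID2 was at -1.38 (limma adjusted p = 0.0054) and ID1 at -1.27 (adjusted p = 0.13, or 0.023 with the replicate block). Against OE without Dox, KO was at -2.99 for ID1 (limma adjusted p = 0.00056). For ID2 it was at -1.27 (adjusted p = 0.0066, or 0.074 without OE without Dox replicate 2), a smaller fall than beside WT. Neither ID gene was called under Dox. HES5, a NOTCH-driven repressor, rose in KO from 499 ± 27.8 to 1090 ± 133 (log2 fold 1.12, SE 0.28, limma adjusted p = 0.013; 0.069 with no filter) and fell under Dox from 1485 ± 311 to 145 ± 75.3 (-3.50, SE 0.31, adjusted p = 6.5e-07). Against OE without Dox, where HES5 was also above WT (1.55, limma adjusted p = 0.0080), KO was at -0.43 (adjusted p = 0.81), so the rise in KO was seen only beside WT. HES4 fell under Dox by 2.03 (limma adjusted p = 1.5e-06) and was at 0.17 in KO (adjusted p = 0.66).

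Companions and known targets of proneural factors, 12 genes, gave 2 higher and 1 lower in KO, and 0 higher and 6 lower under Dox, with median log2 folds of 0.00 and -0.77. In that higher direction 0 had an unadjusted p under 0.05, and edgeR and DESeq2 called 0. The NOTCH ligands DLL1 and DLL3, direct targets of proneural factors, fell under Dox by 2.38 (limma adjusted p = 3.8e-07) and 1.82 (adjusted p = 1.5e-06), and had log2 folds of 0.41 and -0.17 in KO, not called (adjusted p = 0.22 and 0.62), although DLL1 passed without OE with Dox replicate 3 (0.044). HES6 fell in KO by 0.55 (limma adjusted p = 0.011, or 0.075 without WT replicate 3) and under Dox by 1.26 (adjusted p = 6.4e-06). In KO against OE without Dox 0 of the 12 genes were called. HES6 passed there only without KO replicate 3 (-0.56, limma adjusted p = 0.033). SRRM4, a splicing factor of neurons, fell under Dox by 1.83 (limma adjusted p = 1.0e-05) and had 0.54 in KO (adjusted p = 0.10; 0.038 without OE with Dox replicate 1). The background shares for KO and Dox given above hold for these lists too, and the same medians of all genes apply.

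**Figure D4:**
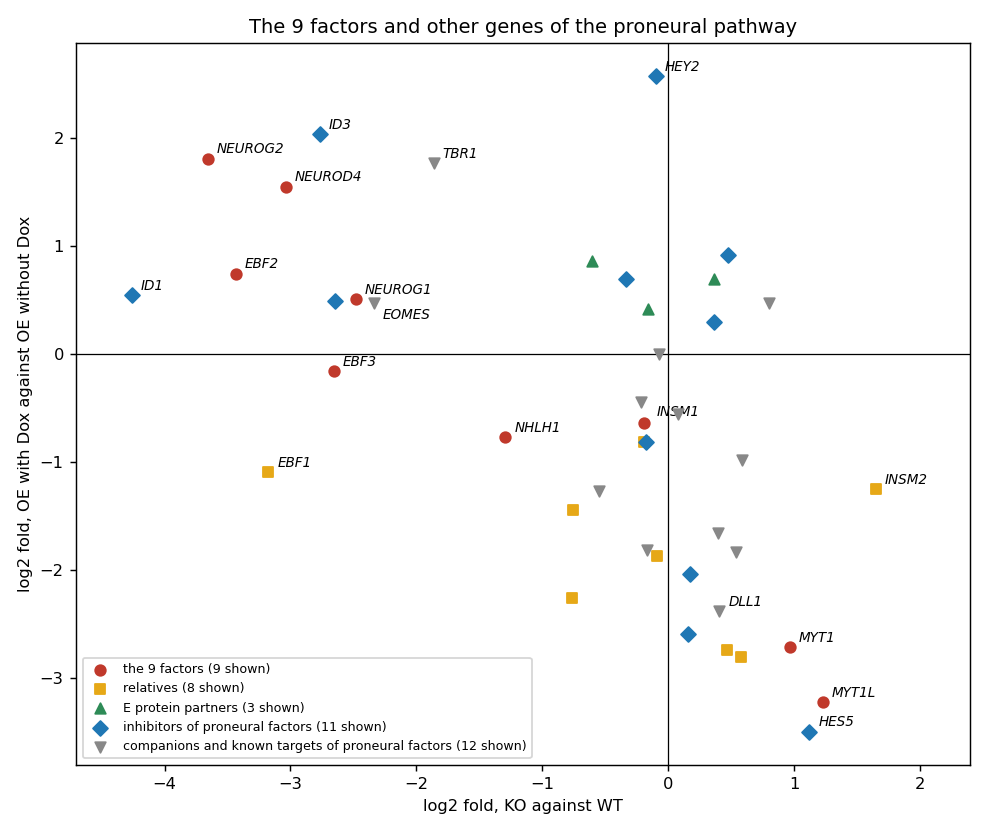
Log2 fold under Dox (vertical) against log2 fold in KO against WT (horizontal) for the 9 factors and genes of the 4 pathway lists, with 1 tested relative not shown. NEUROG1, NEUROG2, NEUROD4, EBF2 and EBF3 lie far to the left near or above 0 on the vertical axis, while MYT1, MYT1L, HES5 and DLL1 lie right of 0 and well below it.

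Markers of other cells also differed between the groups. Calls in the marker lists below are read beside the shares of all tested genes. Those were 7.15% lower and 6.64% higher in KO against WT, and 12.9% lower and 12.8% higher under Dox. In OE without Dox against WT they were 2.32% lower and 3.43% higher. Of 7 listed Cajal-Retzius and hem-derived neuron markers, 6 were tested and 4 fell in KO, with summed levels of 595 to 1083 in WT, 151 to 234 in KO, 446 to 563 in OE without Dox and 603 to 700.5 in OE with Dox. Under Dox 2 of the 6 were called lower and 0 higher, also by edgeR and DESeq2, although 4 had a positive log2 fold. In OE without Dox 2 were called lower than in WT. Within the induced sums RELN alone was at 206 in replicate 1 and at 494 and 524 in the others. TBR1 is in that list and among the companions above, and CALB2, TBR1 and BARHL1 were at 0 in 1, 1 and 3 libraries. Of 6 neural crest markers, 4 were tested and all 4 fell in KO, with sums of 494 to 558 in WT, 67.1 to 187 in KO, 131 to 280 in OE without Dox and 169 to 695 in OE with Dox. Among those induced libraries PAX3 alone was at 17.5 in replicate 1 and at 308 and 592 in the others. SOX10, the defining neural crest factor, had 0 reads in all 14 libraries, and FOXD3 was at 0 in 5. Of 8 mesenchyme markers, 4 fell in KO and 7 rose under Dox, with sums of 433 to 867, 173 to 304, 193 to 917 and 1242 to 3647 in WT, KO, OE without Dox and OE with Dox. DCN and FOXC1 were at 0 in 2 libraries each, and TWIST1 and PRRX1 in 1 each.

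Of 6 sensory placode and sensory neuron markers, 5 were tested, with 1 higher and 1 lower in KO and the same under Dox. With 5 genes, 1 call in a direction cannot be set apart from the shares of all genes. The sums of these markers were 99.4 to 176 in WT, 279 to 447 in KO, 301 to 645 in OE without Dox and 114 to 201 in OE with Dox. PRPH was at 0 in 3 libraries. The 6 MGE markers gave 4 higher in KO and 5 lower under Dox, with sums of 1765 to 2187, 8510 to 10801, 5835 to 9558 and 1653 to 2574 in the 4 groups in the same order. The 6 neural progenitor markers, HES5 among them, gave 1 higher and 3 lower in KO and 1 higher and 4 lower under Dox, with sums of 20798 to 25033, 14559 to 18583, 19279 to 19565 and 14347 to 17310. MYT1 and MYT1L were high in the 2 groups where the MGE sum was high, and NEUROG1, NEUROG2, NEUROD4, EBF2 and EBF3 were low in the group where the Cajal-Retzius, neural crest and mesenchyme sums were lowest or nearly so. In OE without Dox, however, the median neural crest and mesenchyme sums were 132 and 268, beside 121 and 218 in KO and 553 and 507 in WT. NEUROG1, NEUROG2, NEUROD4, EBF2 and EBF3 were not called in that group against WT. The median Cajal-Retzius sum there was 512, beside 194 in KO and 925 in WT. The part of cell composition in any of these changes was not tested.

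The genes most like each factor over the 14 libraries were found by Pearson r on log2(normalized count + 1), among 11277 genes with a mean of at least 50. These r values describe 4 groups with different means, which all genes share, and carry no p. NEUROG1 was closest to ADAMTS18 (r = 0.972) and CLDN1 (0.952), NEUROG2 to ADAMTSL1 (0.955) and CLDN1 (0.926), and EBF2 to FLRT2 (0.959) and ADAMTS18 (0.936). NEUROD4 was closest to NEFM (0.908) and LTBP1 (0.904), and EBF3 to DACH1 (0.947) and CDH7 (0.942). The highest values were those of MYT1 with INPP5J (0.986) and CAMK2A (0.981) and of MYT1L with MARK1 (0.981) and STMN4 (0.979). NHLH1, with FEZF2 (0.867) and DYNC2I1 (0.808), and INSM1, with STK32A (0.864) and RNF144A (0.862), had the weakest.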

How the data were processed

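RNA-seq of 14 libraries was used as 1 deposited table of normalized counts, in which the authors divided the read count of each gene by 1 size factor per library, so each value is a signal proportional to reads. HTSeq 0.9.1, TopHat2 2.1.1, DESeq2, R 3.4.0 and the build hg38 appear, without roles, among the submitters' processing notes; the annotation release and strand setting are not given in the sources used here. All values (100.0%, tolerance 0.01 read) were whole multiples of 1 step per library, so reads were recovered, and no column was left unused. Gene names and coordinates came from GENCODE 44. limma 3.58.1 (R 4.3.3), with intensity trend and robust empirical Bayes, was fitted on log2(normalized count + 1); edgeR 4.0.16 and DESeq2 1.42.0 were run on recovered reads. Same-numbered libraries deviated together (r over 0.1 in every pair) between OE without and with Dox (0.22, 0.25 and 0.40) and between WT and OE without Dox (0.22, 0.17 and 0.28), so the block is given beside those 2 comparisons; in the others at least 1 pair was under 0.1. The fit was tested on simulated data. Some listed genes are not reported here. The 9 factors and all lists were chosen with earlier results of these data known. Named genes were CTNNB1, the 9 factors, up to 4 genes per pathway list by smallest adjusted p in KO or Dox, the 2 most alike genes per factor, and markers; EOMES, TBR1 and the genes of the closing observations were named after their values were seen. Alternatives were the pseudocount (0.5, 5), the filter (none, 50), TMM, non-robust fitting, a replicate block, edgeR, DESeq2, the compared groups alone, and each library left out in turn.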

Additional observations from a re-analysis of the deposited data

How the results depend on the processing

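Counts of genes called over the whole table moved by under 1.5 times except where given here, and on the recovered reads edgeR called 1130 genes up and 1270 down in KO against WT, and 2223 up and 2186 down under Dox. In OE without Dox against WT, DESeq2 called 595 genes lower where limma called 396; in KO against OE without Dox, where limma called 60 higher, the filter of 50 gave 38 and DESeq2 92. For the 9 factors, Dox called 1 higher, NEUROG2, with a pseudocount of 5, edgeR, DESeq2 or the replicate block. OE without Dox against WT gave 2 higher (MYT1 and MYT1L) with a pseudocount of 5, no filter, TMM scaling, edgeR, DESeq2 or the compared groups alone, and 0 with the block. OE with Dox against WT gave 2 higher (NEUROG1 and NEUROG2) with edgeR and with DESeq2, and 1 (NEUROG2) with the block. Leaving out libraries in turn gave 0 to 1 factors higher under Dox; in OE without Dox against WT 0 to 2 higher, beside 269 to 643 genes higher and 152 to 440 lower; and in KO against OE without Dox 22 to 69 genes higher and 157 to 306 lower. The cause of these moves was not tested. The calls of NEUROG1, NEUROG2, EBF3, MYT1 and MYT1L in KO against WT held in every alternative, and so did that of EBF2 wherever it was tested. Reversed signs came only for uncalled values: NEUROG2 in OE without Dox against WT was 0.0032 with TMM, and in KO against OE without Dox INSM1 was 0.0075 with edgeR and 0.0096 with DESeq2, and with the block MYT1 was -0.035, ST18 -0.16 and TCF3 -0.056. With libraries left out, the ranges for OE without Dox against WT were -0.32 to 0.47 (NEUROG2), -0.17 to 0.33 (NHLH1), -0.88 to 0.13 (EBF1), -0.044 to 0.26 (HES4) and -0.086 to 0.17 (DLL3); for KO against OE without Dox -0.12 to 0.14 (INSM1), -0.063 to 0.19 (MYT1), -0.0031 to 0.32 (MYT1L), -0.14 to 0.095 (TCF4), -0.081 to 0.13 (TCF3) and -0.038 to 0.22 (HES4); and for EBF3 under Dox -0.49 to 0.34. In the comparisons of KO with either control and of OE with Dox against WT, some same-numbered pairs had correlations under 0.1 (down to -0.29), so numbers were not taken to pair those samples, although 10 of 12 libraries correlated best with their own number. The replicate block gave 1107 genes up and 1376 down in KO against WT, 2467 up and 2454 down under Dox, called NHLH1 lower in both and in KO against OE without Dox (-2.02, adjusted p = 0.00089), where it also called NEUROD4 (-3.55, adjusted p = 0.014) for 6 factors lower in all, called NHLH1 in the Dox minus KO difference (1.16, adjusted p = 0.035), and gave HES5 and TCF12 adjusted p of 0.12 and 0.067 in KO. In KO, EBF2 and NEUROG2 rest on 21 and 27 reads, which limits the precision of their folds.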

Other observations

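In the induced library that stood apart for NEUROG2 and NEUROD4 (OE with Dox replicate 1), the other genes at least 4-fold above both remaining induced libraries included OLIG3, a bHLH factor of dorsal neural tube progenitors, at a normalized count of 460 against 85.5 and 111, and GBX2 at 56.3 against 9.29 and 8.30. They also included genes of antigen presentation: HLA-B was at 836 against 177 and 109, TAP1 at 305 against 39.96 and 54.4, and NLRC5 at 141 against 11.2 and 23.96. These genes were picked after their values were seen.

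Within KO, replicate 5 was the highest library not only for NHLH1 but also for NHLH2, its paralog, at 369 against 43.5 to 200 in the other 4, for NEUROD1, a bHLH factor of differentiating neurons, at 87.7 against 8.50 to 33.2, and for ST18 at 923 against 372 to 757. Replicate 4 was the next highest for all 4 genes. These were also picked after their values were seen. NEUROG1 and NEUROG2 were lowest in KO replicate 5, at 1.79 and 0.895. Both values are under the 2.68 that 3 reads correspond to there, too few reads to rank that library among the KO libraries.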
